A study of Mus musculus with 8 samples.

Results

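The genes described here are 10 growth genes of immature olfactory sensory neurons (OSNs): Gap43, Stmn1, Stmn2, Stmn4, Crmp1, Dpysl3, Dpysl5, Tubb3, Dbn1 and Gng8. They were taken as every array row that carries 1 of these names as its single gene symbol, which gave 11 rows for 10 of the 19938 genes with such a row. Stmn1 has 2 rows, and the row with the higher mean stands for it. The rule uses names and no measured value, but the 10 genes were chosen with earlier results of these data known. The samples are olfactory mucosa of mice at postnatal day 1 on a mixed 129 x C57BL/6J background. The 4 Emx2 knockouts are 123Cre:Emx2(fl/fl), so they carry Cre and have both Emx2 alleles floxed. The 4 littermate controls have 2 genotypes in which at most 1 allele can recombine: control replicates 1 and 4 are 123Cre:Emx2(fl/+), with Cre and 1 floxed allele, and control replicates 2 and 3 are Emx2(fl/fl), with both alleles floxed and no Cre. The 123Cre transgene acts from the immature OSN stage onward and, by the study's account of its reporter and Lhx2 alleles, does not recombine in every OSN, so deletion in the knockouts may be partial. All values are the deposited log2 values of Affymetrix mouse gene arrays, 1 array per sample, and all differences are knockout minus control unless another pair is named.

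An immature OSN has left the cell cycle and grows an axon from the nasal epithelium to the olfactory bulb. At its tip the growth cone adds membrane, builds and dismantles microtubules and rearranges actin, and the proteins for this work are made at high levels until the axon has reached its target. Gap43 is the standard marker of this stage and gives way to Omp when the neuron matures. Emx2 is a homeodomain transcription factor of OSNs, and Ebf proteins are helix-loop-helix factors known for binding upstream of OSN genes.

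Upstream windows in the RefSeq promoter table (GRCm38.p6) were found for 5 of the 10 genes, with 6 windows for Gng8, Dpysl5, Tubb3, Crmp1 and Dbn1, and the 250 bases before each transcript start were searched on both strands. The palindromic Ebf-type motif, TCCC and its reverse complement GGGA with any 2 bases between them, occurred in 1 of these 6 windows, that of Dpysl5, and in 256 of all 32851 windows (0.779%). The homeodomain core TAATTA occurred in 0 of the 6 windows and in 1590 of all windows (4.84%). The Dpysl5 window lies at chr5:30711314-30711563 on the plus strand and is printed because it holds the match, which begins 53 bases before the transcript start. Capitals mark the motif.
Dpysl5: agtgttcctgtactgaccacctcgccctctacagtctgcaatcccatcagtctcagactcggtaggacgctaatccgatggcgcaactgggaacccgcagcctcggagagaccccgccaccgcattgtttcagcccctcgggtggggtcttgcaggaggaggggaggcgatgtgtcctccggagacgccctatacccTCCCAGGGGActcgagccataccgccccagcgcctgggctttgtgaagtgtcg
A match is a description of these letters. Dpysl5 encodes a regulator of neurite outgrowth of the collapsin response mediator protein (CRMP) family.

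No growth gene passed the test, and the 2 with the smallest p, Gap43 and Stmn2, stood lower in the knockouts, at -14.5% for Gap43 and -13.5% for Stmn2. In limma, with p-values adjusted over all 23410 rows that have a gene symbol, 0 of the 10 genes had an adjusted p under 0.05, beside 0.359% of all rows. At an unadjusted p under 0.05 there were 2, Gap43 and Stmn2, both lower in the knockout, where 3.06% of all rows were lower at that p. The methods' t-test also called 0 and had the same 2 genes lower at an unadjusted p under 0.05 (3.55% of all rows). In the same 2 genes every knockout lay below every control, a pattern seen in 2.54% of all rows. With values as deposited, 9 of the 10 differences were below 0, against 48.4% of rows, but only 3 were with arrays centred on mature OSN genes. The median difference of the 10 genes was -0.08, against 0.0041 over all rows and -0.017 over rows without the dimmest 30%. All 10 genes are brighter than the median row. With that centring the median of the 10 genes was 0.06 where the median of all rows was 0.14. RNA from bulk mucosa cannot separate fewer cells of a type from less RNA per cell.

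The targeted gene and the tissue were checked first. Emx2 had 9.80, 9.86, 10.01 and 9.93 in knockout replicates 1 to 4, against 10.80, 10.86, 11.00 and 10.72 in control replicates 1 to 4, so that no values overlapped. It fell by 0.94 (SE 0.082, adjusted p = 0.0014 by limma), which is -48.0%. Omp, the marker of mature OSNs, averaged 12.88 in knockouts and 12.94 in controls, and Lhx2, a LIM homeodomain factor of OSNs, averaged 12.51 and 12.52, so the neurons the labels imply were present in every sample. Knockout replicate 2 stood apart, with a mean correlation to the other arrays of 0.979 against 0.988 to 0.991 for the rest, and an array weight of 0.17. It was the highest knockout for 6 of the 10 growth genes (42.9% of all rows) and the lowest for the other 4 (34.8% of all rows).

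Gap43 is a membrane-bound protein of the growth cone and a substrate of protein kinase C. Its values were 11.37, 11.25, 11.32 and 11.41 in knockout replicates 1 to 4, against 11.48, 11.57, 11.65 and 11.56 in control replicates 1 to 4. Every knockout was below every control, with 0.065 between the highest knockout, replicate 4, and the lowest control, replicate 1. Means were 11.34 ± 0.068 in knockouts and 11.56 ± 0.070 in controls (SD, n = 4 each). The difference was -0.23 (SE 0.068, 95% interval -0.38 to -0.07), which is -14.5% with an interval of -23.2% to -4.76%. The exact two-sided permutation p was 0.0286, the smallest that 4 against 4 samples allow, and the adjusted p over all rows was 0.564 by limma. Over 19 other settings the difference ran from -0.27 to -0.088, and an unadjusted p under 0.05 was lost in 2 of them, under centring of arrays on mature OSN genes and with the 123Cre:Emx2(fl/+) controls alone.

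Stathmins bind tubulin dimers and promote the disassembly of microtubules. Stmn2 (SCG10), the stathmin of growing axons, had 12.95, 12.90, 13.06 and 13.09 in knockout replicates 1 to 4, against 13.15, 13.20, 13.27 and 13.23 in control replicates 1 to 4. The groups again did not overlap, with 0.056 between the highest knockout and the lowest control, and the same arrays, knockout 4 and control 1, met at that gap. The difference was -0.21 (SE 0.070, 95% interval -0.37 to -0.05), or -13.5%, with an exact permutation p of 0.0286 and an adjusted p of 0.689 by limma. Stmn1, the founding stathmin, had 13.28, 13.27, 13.31 and 13.27 in knockouts, against 13.28, 13.39, 13.34 and 13.29 in controls. These values overlapped, the SD of the knockouts (0.018) was the smallest of the 10 genes, and the difference was -0.05 (95% interval -0.18 to 0.09). The second Stmn1 row gave the same difference of -0.05. Stmn4 (RB3), a neuronal stathmin, had 8.82, 9.02, 8.87 and 8.78 in knockouts and 8.87, 9.12, 8.96 and 8.84 in controls. Knockout replicate 2 and control replicate 2 were the highest of their groups for Stmn4, the groups overlapped, and the difference was -0.08 (95% interval -0.27 to 0.12, exact permutation p = 0.40).

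**Figure D1:**
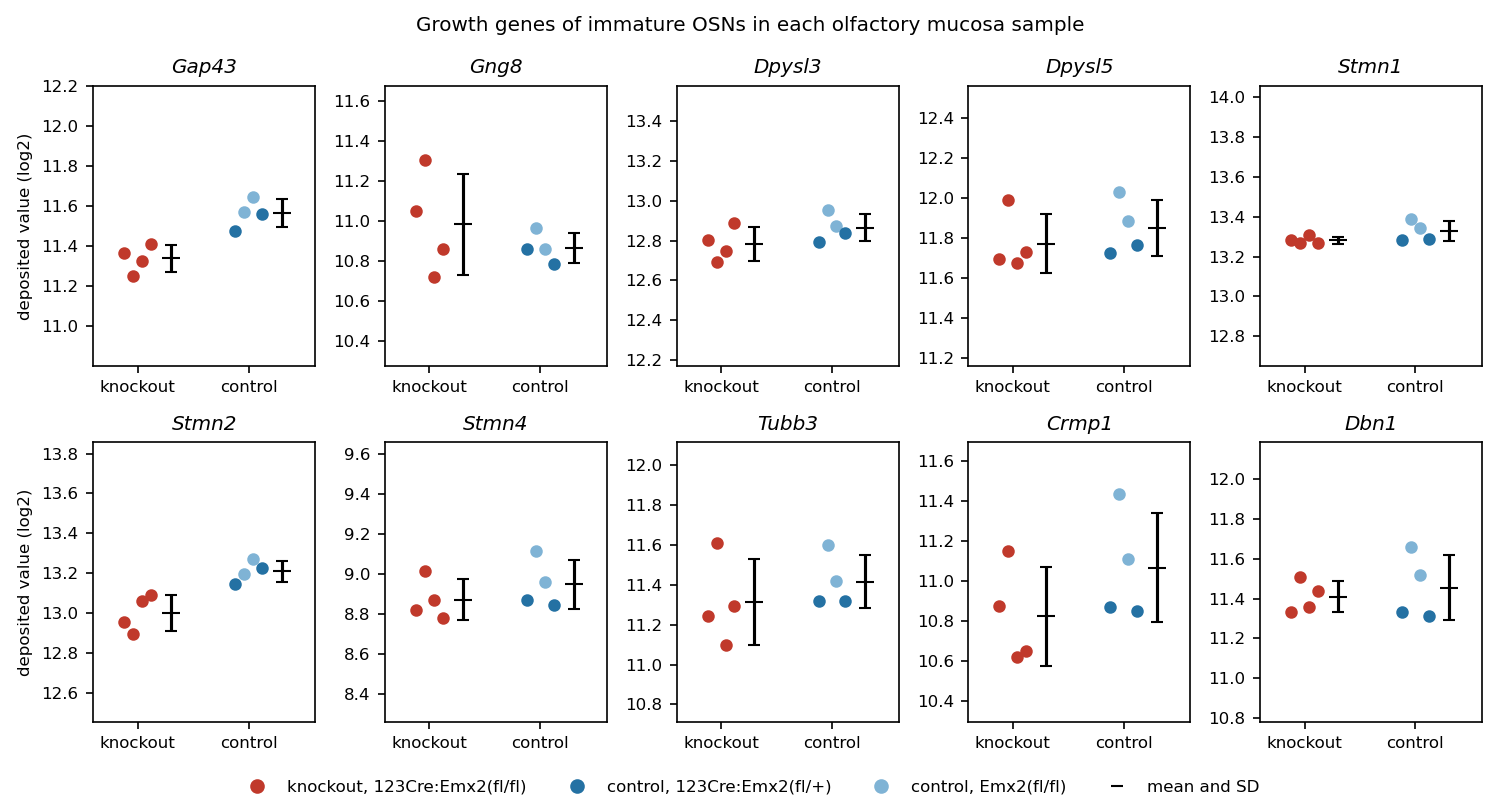
Deposited log2 values of the 10 growth genes on a vertical axis of equal span in every panel, for knockouts (left) and controls (right). Each point is a sample, its colour gives the genotype, and bars show mean and SD. Knockouts and controls do not overlap for Gap43 and Stmn2 and overlap for the other 8 genes.

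CRMPs, the family of Dpysl5, carry signals from guidance receptors to the cytoskeleton of the growth cone. Crmp1 varied most of the 10 genes, over 0.82 on the log2 scale. It had 10.87, 11.15, 10.62 and 10.65 in knockout replicates 1 to 4, against 10.87, 11.44, 11.11 and 10.85 in control replicates 1 to 4. The lowest values were knockouts 3 and 4, while knockout 2 lay above 3 of the 4 controls. Its difference of -0.24 (SE 0.16, 95% interval -0.61 to 0.12, exact permutation p = 0.314) was as large as that of Gap43 but within the spread of the samples. An unadjusted p under 0.05 was reached in 3 of 19 other settings, which were array weights, the Emx2(fl/fl) controls alone, and leaving out knockout replicate 2 (-0.35), and its adjusted p was at least 0.235 throughout. The difference was nearer to 0 with the 123Cre:Emx2(fl/+) controls alone (-0.04), without control replicate 2 (-0.12) and with centring on mature OSN genes (-0.11).

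Dpysl3 (CRMP4) had 12.80, 12.69, 12.75 and 12.89 in knockouts and 12.79, 12.95, 12.87 and 12.84 in controls, a difference of -0.08 (95% interval -0.24 to 0.08, exact permutation p = 0.229). Knockout 4 lay above 3 controls. Dpysl5 (CRMP5), whose window holds the Ebf-type motif printed above, had 11.69, 11.99, 11.67 and 11.73 in knockouts and 11.72, 12.03, 11.89 and 11.77 in controls. Its groups overlapped and its difference was -0.08 (95% interval -0.31 to 0.15, exact permutation p = 0.457). The intervals of Dpysl3 and Dpysl5 reach to -15.5% and -19.1% at their lower ends, so losses up to that size lie within the intervals that 4 arrays a group allow.

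Tubb3, the beta-tubulin specific to neurons, had 11.24, 11.61, 11.10 and 11.29 in knockouts and 11.32, 11.60, 11.42 and 11.32 in controls. Knockout replicate 2 was the highest of all 8 samples, and the other 3 knockouts lay below every control. The difference was -0.10 (SE 0.12, 95% interval -0.37 to 0.17, exact permutation p = 0.371) and -0.20 without knockout replicate 2, where the unadjusted p was 0.0565 by limma. Leaving out knockout replicate 3 gave -0.03 and leaving out control replicate 2 gave -0.04, and the difference was -0.0065 with the 123Cre:Emx2(fl/+) controls alone. Dbn1 (drebrin), which binds actin filaments and links them to microtubules in growth cones, had 11.33, 11.51, 11.36 and 11.44 in knockouts and 11.33, 11.66, 11.52 and 11.31 in controls. The controls spanned the knockouts on both sides. The difference was -0.04 (95% interval -0.26 to 0.17, exact permutation p = 0.686) and became 0.02 without control replicate 2.

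Gng8 encodes a G protein gamma subunit of immature OSNs, and a different subunit, Gng13, takes over in mature OSNs. It was the growth gene with a difference above 0. Gng8 had 11.05, 11.31, 10.72 and 10.86 in knockout replicates 1 to 4, against 10.86, 10.97, 10.86 and 10.79 in control replicates 1 to 4. Knockouts held both the highest and the lowest value, with an SD of 0.25 against 0.075 in controls. The difference was 0.12 (SE 0.12, 95% interval -0.16 to 0.39, exact permutation p = 0.457), 0.01 without knockout replicate 2 and 0.21 when knockout replicate 3 was left out.

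Crmp1, Gap43 and Stmn2, which had the 3 lowest differences, and Gng8, which had the highest, were followed through 19 other settings. Gap43 and Stmn2 kept a difference below 0 in all of them, and an unadjusted p under 0.05 in 17 of 19 each, while no setting gave any of the 10 genes an adjusted p under 0.05, the lowest being 0.173 for Gap43. All settings reuse the same samples, and several leave the estimate unchanged. In Gap43 and Stmn2 every knockout lay below every control, so leaving out samples or a control genotype could not change the sign. The counts of settings are therefore not independent support.

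**Figure D2:**
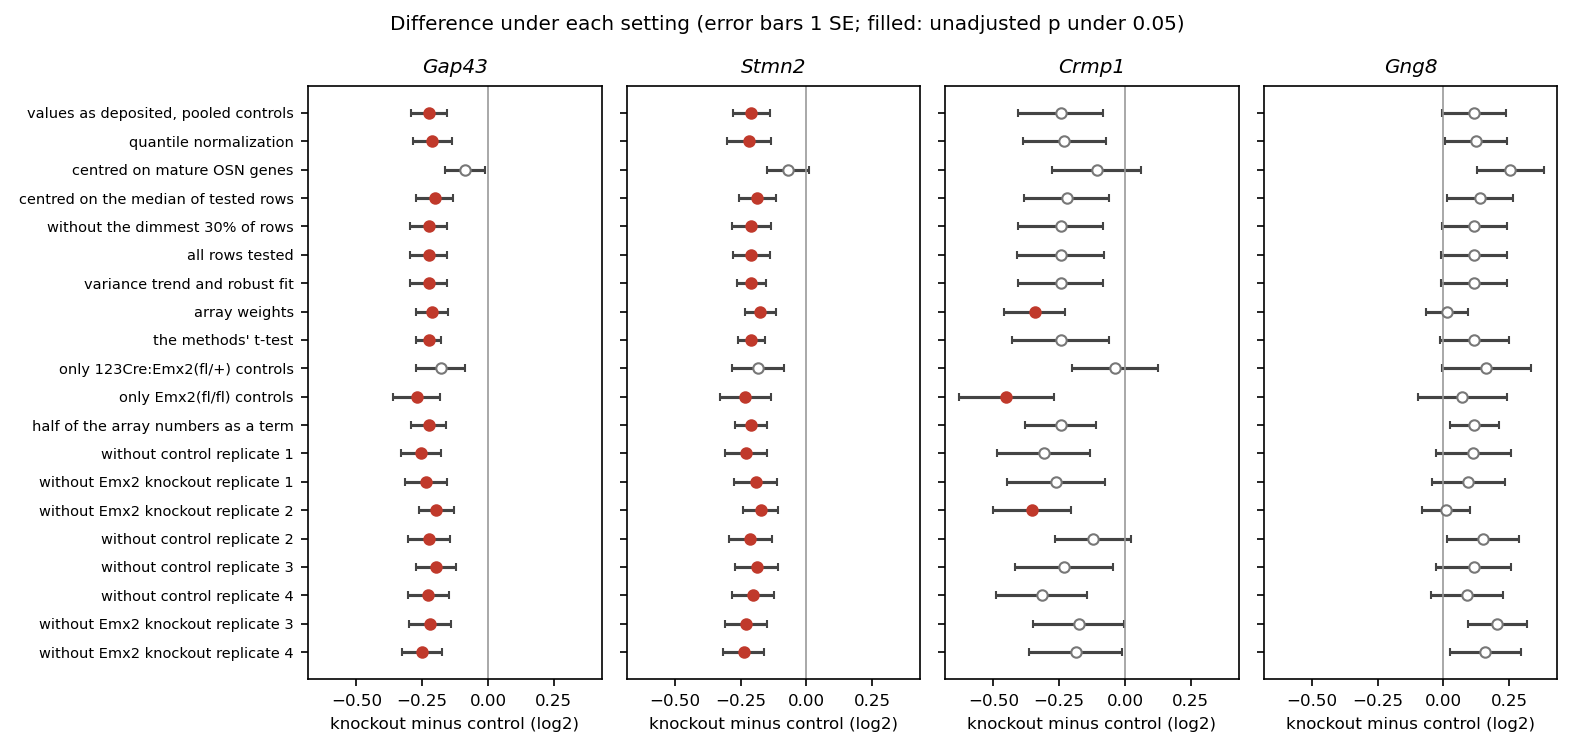
Difference (horizontal axis, log2) of Gap43, Stmn2, Crmp1 and Gng8 under the deposited values and 19 other settings (vertical axis), with bars of 1 SE and filled points at an unadjusted p under 0.05. Gap43 and Stmn2 are below 0 under every setting shown and closest to it, at -0.088 and -0.072, after centring on mature OSN genes, while Gng8 is above 0 throughout, from 0.01 to 0.25.

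The order of the 10 differences was Crmp1, Gap43, Stmn2, Tubb3, Dpysl3, Dpysl5, Stmn4, Stmn1, Dbn1 and Gng8, running from -0.24 to 0.12. Each of these estimates lay inside the 95% interval of its neighbours in that order, which sorting by the estimates favours. Differences between genes were not tested.

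The 2 control genotypes were then set against each other. In a limma fit with 3 genotypes, all 10 differences of 123Cre:Emx2(fl/+) minus Emx2(fl/fl) were below 0, against 52.1% of rows, with a median of -0.14 against -0.0079 over all rows. For 9 of the 10 genes, all but Stmn2, both 123Cre:Emx2(fl/+) controls lay below both Emx2(fl/fl) controls, which held for 20.3% of all rows. Dbn1 had the lowest p of the 10 genes and differed by -0.27 (SE 0.10, unadjusted p = 0.0333), while Crmp1 differed by -0.41 (SE 0.19, unadjusted p = 0.0674). Neither passed (adjusted p = 0.997 for both by limma). In this contrast 0 rows were called and 478 rows had an unadjusted p under 0.05, with 1.41% of rows lower at that p. Control replicate 2, an Emx2(fl/fl) sample, was the highest control for 8 of the 10 genes (36.4% of all rows), and control replicate 3, the other one, was the highest for Gap43 and Stmn2. The lowest control was replicate 1 for 5 genes and replicate 4 for the other 5.

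**Figure D3:**
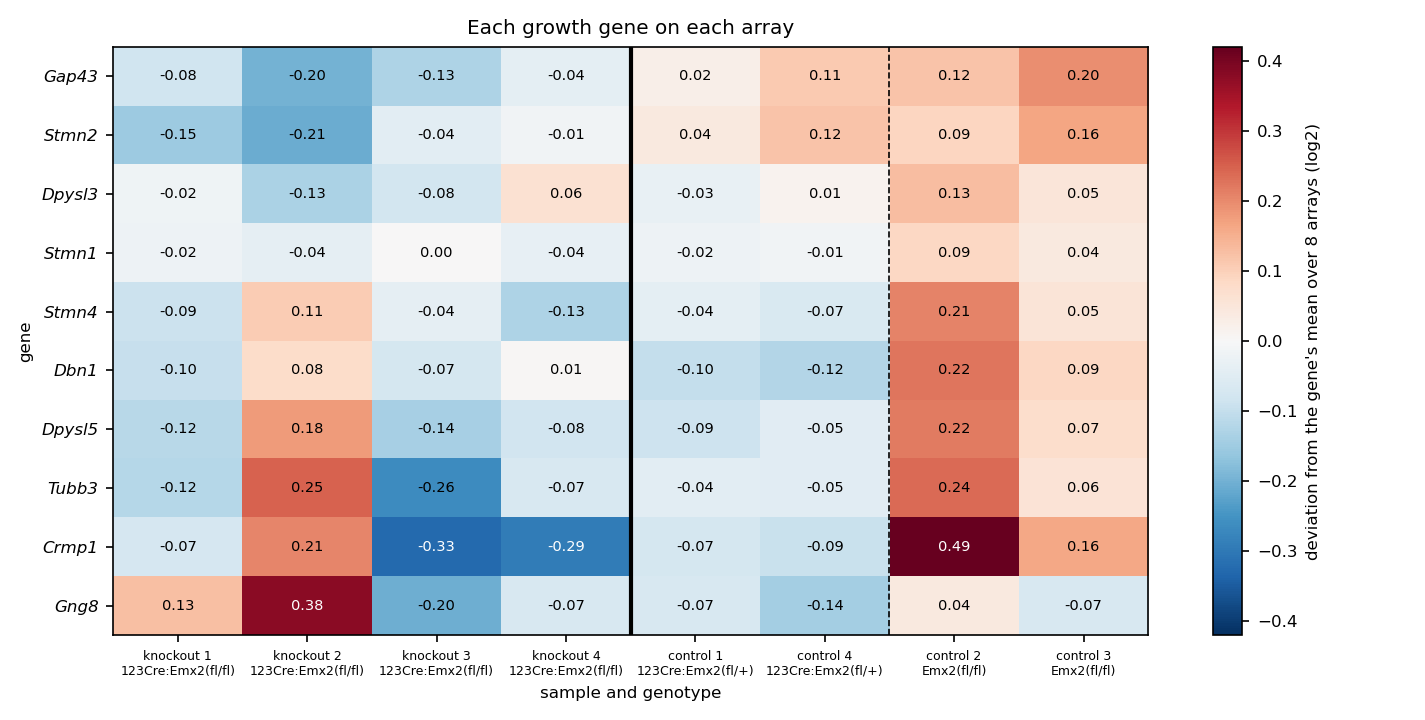
Deviation of each growth gene (rows) from its own mean over 8 arrays, in log2 units (colour and printed value), with knockouts left of the solid line and controls of the 2 genotypes on either side of the dashed line. Gap43 and Stmn2 are below their mean in all 4 knockouts and above it in all 4 controls, while Crmp1 ranges from -0.33 in knockout 3 to 0.49 in control 2.

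Knockouts were also set against each control genotype alone. Against the 123Cre:Emx2(fl/+) controls, which share Cre with the knockouts, 6 of 10 differences were below 0 (44.8% of all rows) and the median was -0.0062, against 0.017 over all rows. Gap43 differed by -0.18 (SE 0.085, unadjusted p = 0.0672) and Stmn2 by -0.19 (SE 0.091, unadjusted p = 0.0758). None of the 10 genes had an unadjusted p under 0.05 in limma, where 1.91% of rows were lower at that p. For Gap43 and Stmn2 every knockout lay below both of these controls (5.8% of all rows). Dbn1 differed by 0.09 (SE 0.089, unadjusted p = 0.351). Against the Emx2(fl/fl) controls, 9 of 10 differences were below 0 (51% of all rows) and the median was -0.18, against -0.0031 over all rows. Gap43 differed by -0.27 (SE 0.085), Crmp1 by -0.45 (SE 0.17) and Stmn2 by -0.23 (SE 0.091), with unadjusted p-values of 0.0133, 0.0286 and 0.034 by limma in that order, where 2.99% of rows were lower at an unadjusted p under 0.05. Every knockout lay below both Emx2(fl/fl) controls for 4 of the 10 genes, Gap43, Stmn1, Stmn2 and Dbn1 (6.46% of all rows). Limma called 0 of the 10 genes in each of the 3 contrasts, beside 0.179% of rows for knockout minus 123Cre:Emx2(fl/+) and 0.137% for knockout minus Emx2(fl/fl), and the smallest adjusted p of a growth gene was 0.765. The 3 contrasts share samples, and each control genotype has 2 arrays.

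**Figure D4:**
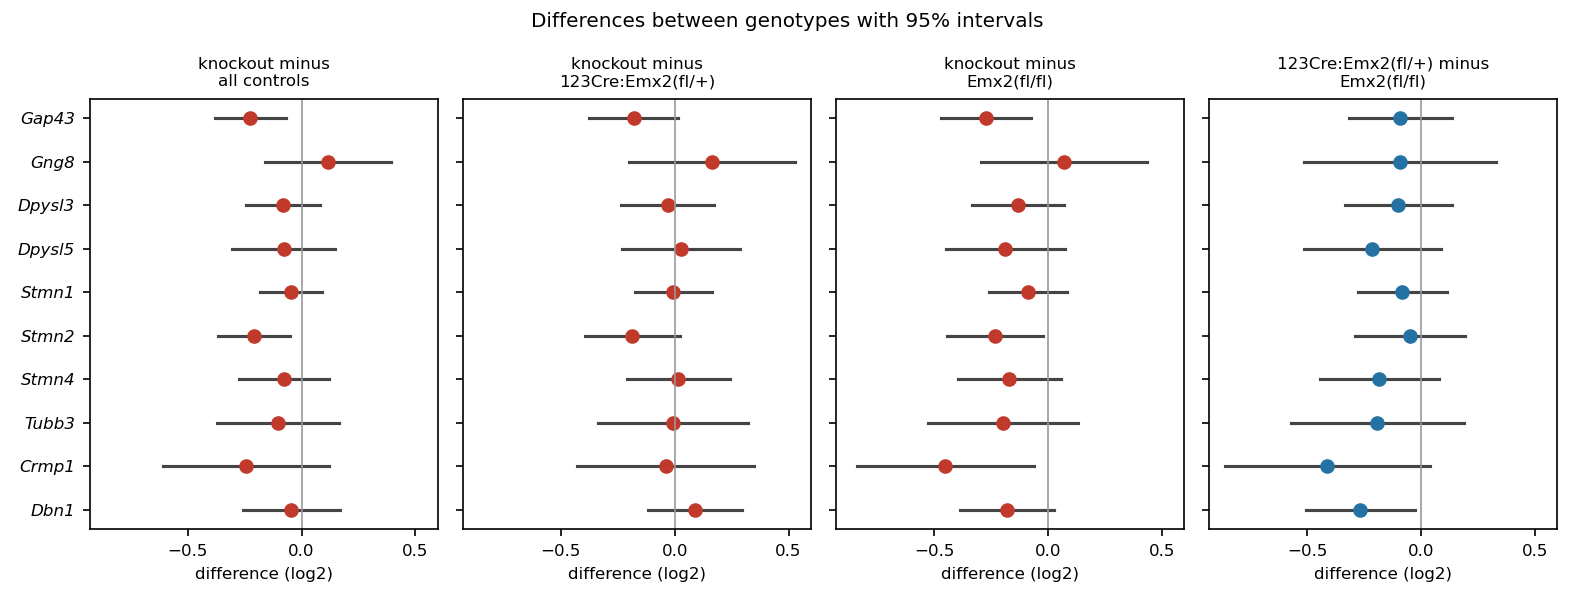
Difference (horizontal axis, log2) of each growth gene in 4 comparisons, with its 95% interval from limma. Gap43 and Stmn2 lie at -0.18 and -0.19 against 123Cre:Emx2(fl/+) and at -0.27 and -0.23 against Emx2(fl/fl), while 7 of the other 8 genes lie nearer to 0 against 123Cre:Emx2(fl/+) than against Emx2(fl/fl).

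Array numbers in the sample titles split the samples into 4 earlier and 4 later arrays with 2 knockouts and 2 controls each. These sets are parts of the same samples, so their signs are not independent of the differences over all samples. Gap43 differed by -0.21 on the earlier and -0.24 on the later arrays, and Stmn2 by -0.25 and -0.17. Knockouts and controls did not overlap for Gap43 and Stmn2, so both sets had to give a difference below 0 for them. Crmp1 differed by -0.14 and -0.35 on the same sets. The knockout mean was below the control mean on both sets for 9 of the 10 genes (25.4% of all rows), and Gng8 differed by 0.27 on the earlier and -0.03 on the later arrays. Later arrays were lower than earlier ones for 7 of the 10 genes and for 56% of rows.

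Gap43 and Stmn2 had close profiles over the 8 arrays. The measure of closeness includes the difference between knockouts and controls, so it restates in part that both genes were lower by a similar amount. Rows were ranked by the root mean square difference of their log2 values from those of Gap43 over the 8 arrays, after the mean of each row was removed. Of 23409 other rows, Stmn2 ranked 6 (0.043), against a median of 0.202 over the rows with a single gene symbol. The 5 rows closer to Gap43 were Glb1l2 (0.036), Eaf1 (0.036), Cracd (0.039), Lrp12 (0.041) and Septin3 (0.043), each lower in the knockout by a difference between -0.23 and -0.19. Dpysl3 ranked 244 and Stmn1 898 (0.106), whereas Crmp1 ranked 16115 (0.240) and Gng8 17707. The measure is not scaled for spread, and a row that did not vary would stand at 0.128 from Gap43. A rank therefore also reflects how much a row varied, which was little for Stmn1 and most for Crmp1 among the growth genes. Of rows with a single symbol, those most like Gng8 were Unc45a (0.025), Tor4a (0.025), Lrrc8e (0.026), Fam117a (0.027) and Zfp467 (0.031), against a median of 0.193 over such rows. The growth gene closest to Gng8 was Tubb3, at rank 5314 of 23409 rows. The 8 points of such a profile share knockout replicate 2, which was far from the mean for Gng8.

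Other genes of the growth machinery were counted in the same fit, with values as deposited; centring arrays on mature OSN genes raised every difference by 0.14. Of 3 further stathmin and CRMP family genes, all were below 0 with a median of -0.31, and 1 had an unadjusted p under 0.05, the CRMP Dpysl4 at -0.33 (SE 0.13). Among 11 other membrane proteins of the growth cone all were below 0 with a median of -0.11. None reached that p in limma, while 2 did in the methods' t-test, where 3.55% of all rows were lower at that p. Means over the 11 genes ran from 11.25 to 11.29 in knockouts and from 11.33 to 11.44 in controls, with no overlap. Of 14 neuronal microtubule-associated proteins 12 were below 0 with a median of -0.14, with Kif5a, a motor of axonal transport, at -0.25 (SE 0.088) and Mapre2, which tracks microtubule ends, at -0.24 (SE 0.077). Of 13 other actin regulators 12 were below 0 with a median of -0.07, and Tmod2, which caps actin filaments, and Ablim1, an actin-binding LIM protein, stood at -0.31 and -0.23.

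The other 2 families held differences on both sides of 0. Of 13 other tubulins measured 9 were below 0 with a median of -0.05, and the one past an unadjusted p of 0.05 was higher in the knockout, Tuba4a at 0.44 (SE 0.19). Of 11 other G protein gamma subunits 5 were below 0 with a median of 0.016, with Gng2 at -0.30 (SE 0.085) and Gngt2, whose row is among the dimmest 30%, at 0.30 (SE 0.11). None of the genes in these 6 lists passed the adjusted test in limma or the methods' t-test.

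The stage and cell type markers of the mucosa also differed between the samples, and their part in the values of the growth genes was not tested. Of 15 other immature OSN genes, a list whose count and median include the targeted Emx2 itself, 12 were below 0 with a median of -0.12. Among them Emx2 passed, and Nhlh2, a helix-loop-helix factor, at -0.35 (SE 0.15), and Trib3, a pseudokinase, at -0.25 (SE 0.11), did not (adjusted p = 0.801 and 0.81 by limma). Of 20 mature OSN genes 17 were below 0 with a median of -0.11. The mean over the list ran from 11.07 to 11.19 in knockouts and from 11.21 to 11.31 in controls. These means did not overlap, and neither did those of the growth cone membrane proteins above. In 6 of the 20 genes every knockout lay below every control (2.54% of all rows). S100a5, a calcium-binding protein, stood at -0.52 (SE 0.13), Rtp2, which helps odorant receptors reach the cell surface, at -0.40 (SE 0.078), and Ano2, a chloride channel of the odorant response, at -0.35 (SE 0.066), with adjusted p-values of 0.308, 0.128 and 0.116 by limma in that order. Cnga4, a subunit of the olfactory cyclic nucleotide-gated channel named here after its values were seen, was the one gene of this list higher at an unadjusted p under 0.05, at 0.27 (SE 0.10, unadjusted p = 0.0296 by limma), where 4 were lower. Basal cell and progenitor genes had a median of -0.04 over 9 genes, and cell cycle genes one of -0.07, with 11 of 11 below 0 and none at an unadjusted p under 0.05.

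**Figure D5:**
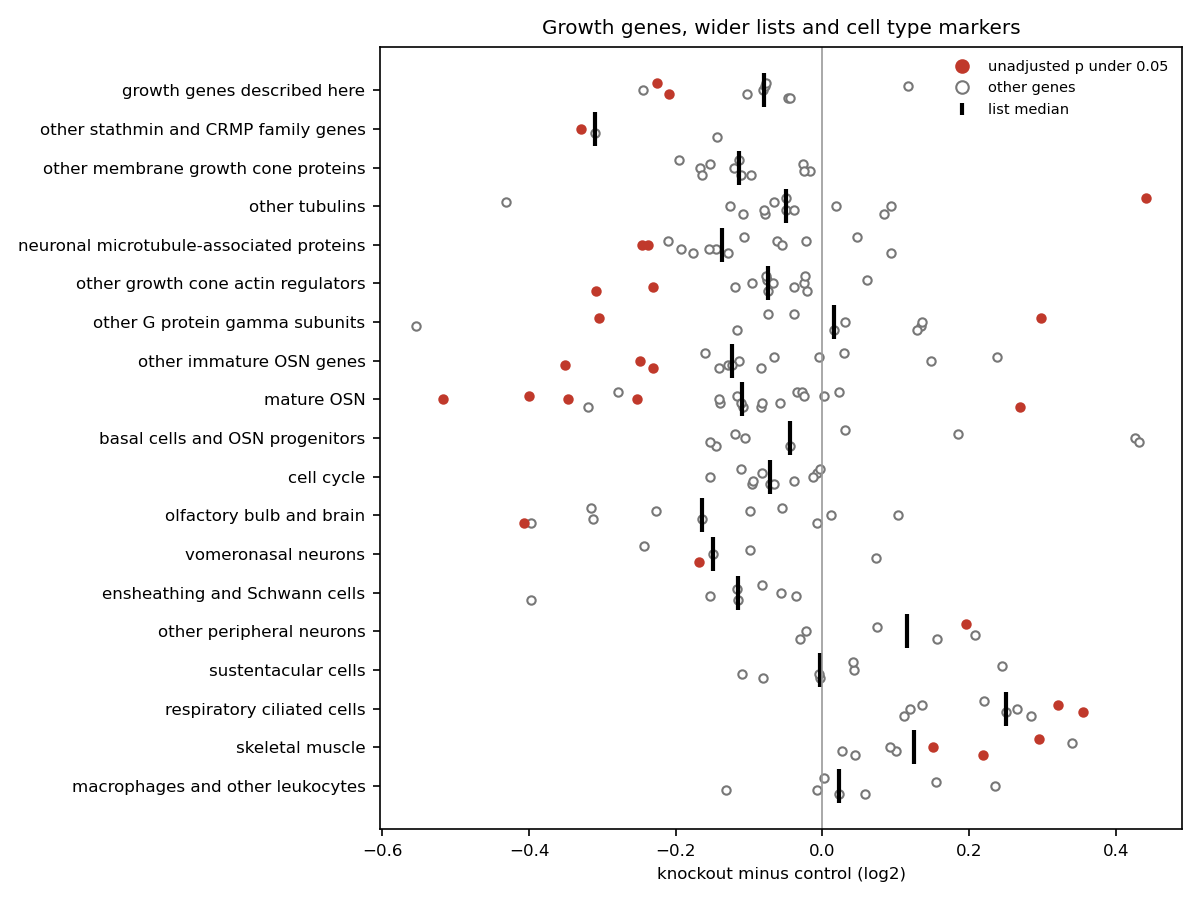
Difference (horizontal axis, log2, knockout minus control) of every measured gene in the growth gene set, the 6 lists of related genes and the 12 marker lists, with Emx2 left out. Filled points have an unadjusted p under 0.05 in limma and black bars are list medians, which run from -0.31 for other stathmin and CRMP family genes to 0.25 for respiratory ciliated cells. Only the point of Emx2 is left out, and the median of the other immature OSN genes counts it.

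Several growth genes are also expressed in the brain and in other neurons of the nose. Of 11 olfactory bulb and brain genes 9 were below 0 with a median of -0.16, and Slc17a7, the vesicular glutamate transporter of forebrain neurons, stood at -0.41 (SE 0.14). Their mean was 7.69, 7.56, 7.81 and 7.63 in knockout replicates 1 to 4, against 7.61, 8.15, 7.90 and 7.70 in control replicates 1 to 4. Control replicates 2 and 3 were thus the highest for this list as they were for the growth genes, and its part in the difference between control genotypes was not tested. The signal of this list is low: Slc32a1, Tbx21, Gfap and Neurod6 have rows among the dimmest 30%, and that of Slc17a7 is below the median row. Vomeronasal neuron genes had a median of -0.15 over 5 genes. Their list means were 10.56 to 10.92 in knockouts and 10.75 to 10.92 in controls. Of the G proteins in this list, Gnao1 stood at -0.17 (SE 0.069). Gnai2, named here after its values were seen, stood on the other side of 0, at 0.07 (SE 0.14). Ensheathing and Schwann cells are the glia along the olfactory nerve, and 7 of their 7 genes measured were below 0 with a median of -0.12. Genes of other peripheral neurons had a median of 0.12 over 6, with Chat, which makes acetylcholine, at 0.20 (SE 0.081) in a row among the dimmest 30%.

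All 9 respiratory ciliated cell genes were above 0 with a median of 0.25, with Tmem212 at 0.36 (SE 0.15) and Dnah9, a dynein of motile cilia, at 0.32 (SE 0.13), and list means ran from 10.13 to 10.52 in knockouts and from 10.07 to 10.21 in controls. All 8 skeletal muscle genes were above 0 with a median of 0.13, with the myosin Myh8 at 0.30, the giant sarcomere protein Ttn at 0.22 and the creatine kinase Ckm at 0.15. The rows of Myh8, Ttn, Mylpf and Myh3 are among the dimmest 30%, and none of the 8 muscle rows is above the median row. Medians were -0.0032 for sustentacular cells and 0.022 for leukocytes. Of these marker lists, other than the immature OSN list with Emx2, none held a gene with an adjusted p under 0.05 in limma or the methods' t-test.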

How the data were processed

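RNA from olfactory mucosa of 8 mice at P1, 4 Emx2 knockouts and 4 littermate controls, was measured on GeneChip Mouse Gene 1.0 ST arrays by the authors. The table deposited by the authors holds log2 values per transcript cluster, which combine the probe sets over the exons of a gene. Affymetrix Expression Console is named in the submitters' processing notes. Its version and its steps for background and normalization are not given in the sources that were read, and the values were used as deposited. The methods also normalize to the average over a far larger set of mature OSN-specific mRNAs. Centring on the 20 mature OSN genes listed here was tried as an alternative and is not the same normalization. Array medians were 8.00 to 8.13. The number of arrays limits the precision. The RNA was taken as equal amounts per sample, so a value is relative to the other RNA of that sample.

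The table has 35557 rows, of which 21789 carry 1 gene symbol in the platform annotation, 1621 several and 12147 none. Knockout and control were compared in limma 3.58.1 (R 4.3.3), by lmFit and two-sided eBayes without covariates, over all 23410 rows with a symbol, with Benjamini-Hochberg adjustment over these rows and a threshold of 0.05. A second fit took the 3 genotypes as groups. Exact permutation tests ran over the 70 assignments of 8 samples to groups of 4. Intervals are 95% intervals of the moderated fit. Percent changes are the log2 difference on the linear scale. The procedure was tested on simulated data. Groups come from the labels, and replicate numbers follow sample order and only name samples. The labels give no litter, so p-values reflect only the spread among these samples, and knockouts and controls shared litters per the methods.

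The 10 genes and all lists were chosen with earlier results of these data known. The text names the 10 genes, Emx2, Lhx2 and Omp, up to 3 genes per list past an unadjusted p of 0.05, those that differed most, and the 5 rows most like Gap43 and most like Gng8. Where a listed gene had several rows, the brightest by mean over all samples was used. Listed genes without a row of their own were not used here. Alternatives were quantile normalization, centring on mature OSN genes or on the median row, a filter on the dimmest 30% of rows, a test of all rows with or without symbol, limma's trended and robust fit, array weights, the methods' t-test (equal variance), either control genotype alone, array number (earlier or later 4) as a term, and leaving out each sample. Upstream windows come from RefSeq (GRCm38.p6).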

Additional observations from a re-analysis of the deposited data

How the results depend on the processing

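The count of 0 growth genes called held under all 19 alternatives. With arrays centred on mature OSN genes, which moved the median of all rows to 0.14, differences turned above 0 for Dpysl3 (0.0565), Dpysl5 (0.0587), Stmn1 (0.0909, second row 0.0883), Stmn4 (0.0608), Tubb3 (0.0354) and Dbn1 (0.0928). Then 0 growth genes had an unadjusted p under 0.05, 3 were below 0 (2 against 123Cre:Emx2(fl/+)), and their median was 0.0576. With the 123Cre:Emx2(fl/+) controls alone, differences turned above 0 for Dpysl5 (0.0282), Stmn4 (0.0151) and Dbn1 (0.0885), 0 growth genes had an unadjusted p under 0.05, and 32 rows were called. Without control replicate 2 that of Dbn1 was 0.0223, and over all samples left out it ran from -0.0928 to 0.0223.

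Rows called, 84 with all samples, numbered 27 without the dimmest 30% of rows, 224 with array weights, 28 with the methods' t-test and 25 with the Emx2(fl/fl) controls alone. They ran from 46 without knockout replicate 1 to 132 without knockout replicate 2, with 54, 51 and 54 when control replicates 2, 3 and 4 were left out in turn and 55 when knockout replicate 3 was. Of the genes in the wider lists, 1 was called (Emx2), 5 with array weights (Emx2, Rtp2, S100a5, Ano2 and Mapre2), and 1 to 3 when a sample was left out, the 3 being Emx2, Rtp2 and S100a5 without knockout replicate 2. The median of the growth genes, -0.08 with all samples, ran from -0.14 without knockout replicate 2 to -0.03 without control replicate 2 over the samples left out, and was -0.18 with the Emx2(fl/fl) controls alone and -0.0062 with the 123Cre:Emx2(fl/+) controls alone. The causes were not tested.

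No paired analysis was possible because the labels give no replicate numbers shared between groups. Each control genotype has 2 arrays, and control genotype and litter cannot be told apart.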
